A study of Mus musculus with 19 samples.

Results

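The genes described here are 10 genes of fibroblast growth factor (FGF) and epidermal growth factor (EGF) signalling in cultured mouse neural progenitor cells: the receptor genes Fgfr1, Fgfr2, Fgfr3 and Egfr, the inhibitor genes Spry1, Spry2, Spry4 and Dusp6, and the transcription factor genes Etv4 and Etv5. They were taken by name, as receptors for the 2 growth factors in the culture medium and genes that answer to them. All 10 were among the 26621 genes of the RNA-seq table, and all 10 were among the 13105 genes with enough reads to be tested.

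FGF and EGF bind receptor tyrosine kinases at the cell surface, which switch on RAS, the RAF and MEK kinases and finally the kinase ERK. ERK signalling turns on its own brakes: Sprouty proteins (the Spry genes) interfere with the step from receptor to RAS and RAF, and DUSP6 removes the activating phosphates from ERK. Etv4 and Etv5 encode ETS transcription factors that FGF signalling induces in many embryonic tissues. Neural progenitor cells, which divide and give rise to neurons and glia, are commonly kept dividing in culture by basic FGF (bFGF) and EGF, and the same receptors act in the developing cortex, where Fgfr3 also marks astrocytes.

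The cells came from the mouse cerebral cortex at embryonic day 17.5 and were of 2 genotypes: wild type, written WT, or with a conditional knockout of Mettl8, written cKO. Mettl8 encodes an RNA methyltransferase. All of them grew on plates coated with 1% Matrigel in medium with bFGF and EGF, each at 20 ng/mL, so no library is free of either factor. RNA-seq covered 6 cKO and 6 WT libraries, each from 300 ng of total RNA, and hydrazine-aniline cleavage sequencing (HAC-seq), which cuts RNA at 3-methylcytidine, covered 3 cKO and 4 WT libraries from 8000 ng. The names of the RNA-seq libraries fall into 2 series, called set 1 and set 2 here. The first comprises WT replicates 1, 2 and 3 and cKO replicates 1 and 2. The other comprises WT replicates 4, 5 and 6 and cKO replicates 3, 4, 5 and 6. The labels give the same medium, stage and library method for both sets and do not say how the sets differ. They name neither the Cre driver nor the time of deletion, and they do not say that replicates are separate animals or cultures, so the spread behind every p-value is that between libraries and may be technical.

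Total counts per RNA-seq library ranged from 14223196 to 18335183 in set 1 and from 11830839 to 18863781 in set 2. By genotype they ranged from 11830839 to 15766429 in cKO and from 15096888 to 18863781 in WT. Levels are given in CPM, a gene's reads scaled to one fixed library total, after trimmed-mean (TMM) adjustment of the libraries. Mettl8 lay between 59.3 and 80.9 CPM in the libraries labelled cKO and between 35.9 and 58.6 CPM in those labelled WT. Its RNA was thus not lower in the knockout: every library labelled cKO lay above every library labelled WT, if narrowly at the nearest pair. The genotypes were apart in this way, in either direction, for 0.13% of all genes tested. Counts over the whole gene do not show whether the deleted part is missing. cKO therefore stands for libraries labelled cKO throughout. Progenitor markers were present in every library (Sox2 at 636 to 1404 counts, Pax6 at 777 to 1773 and Nes at 563 to 1385), whereas of 6 microglial markers Tmem119 had 0 counts in all 12, P2ry12 had 24 to 123 counts and the other 4 had at most 9. Reads from the Y chromosome exceeded those of Xist, the RNA of the inactive X chromosome, in cKO replicates 1 and 5, and WT replicate 3 held Xist at 176 CPM together with Y-linked reads at 6.38 CPM.

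Most of the 10 genes differed between the library sets, and none passed the test between genotypes. In set 2 all 4 inhibitor genes and Etv5 were higher than in set 1, by 1.49-fold for Etv5 to 2.94-fold for Spry4, and the receptor genes Fgfr2, Fgfr3 and Egfr were lower. edgeR's quasi-likelihood test, with Benjamini-Hochberg adjustment over all 13105 genes and genotype as a covariate, called 8 of the 10 members at an adjusted p under 0.05, 5 higher and 3 lower. The background was high: the same rule called 43.8% of all genes tested, 21.5% higher and 22.2% lower in set 2. The median log2 difference between sets was 0.30 over the members and 0.0012 over all genes. For 7 members no library of one set overlapped the other set in CPM, as was so for 23.6% of all genes tested.

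**Figure D1:**
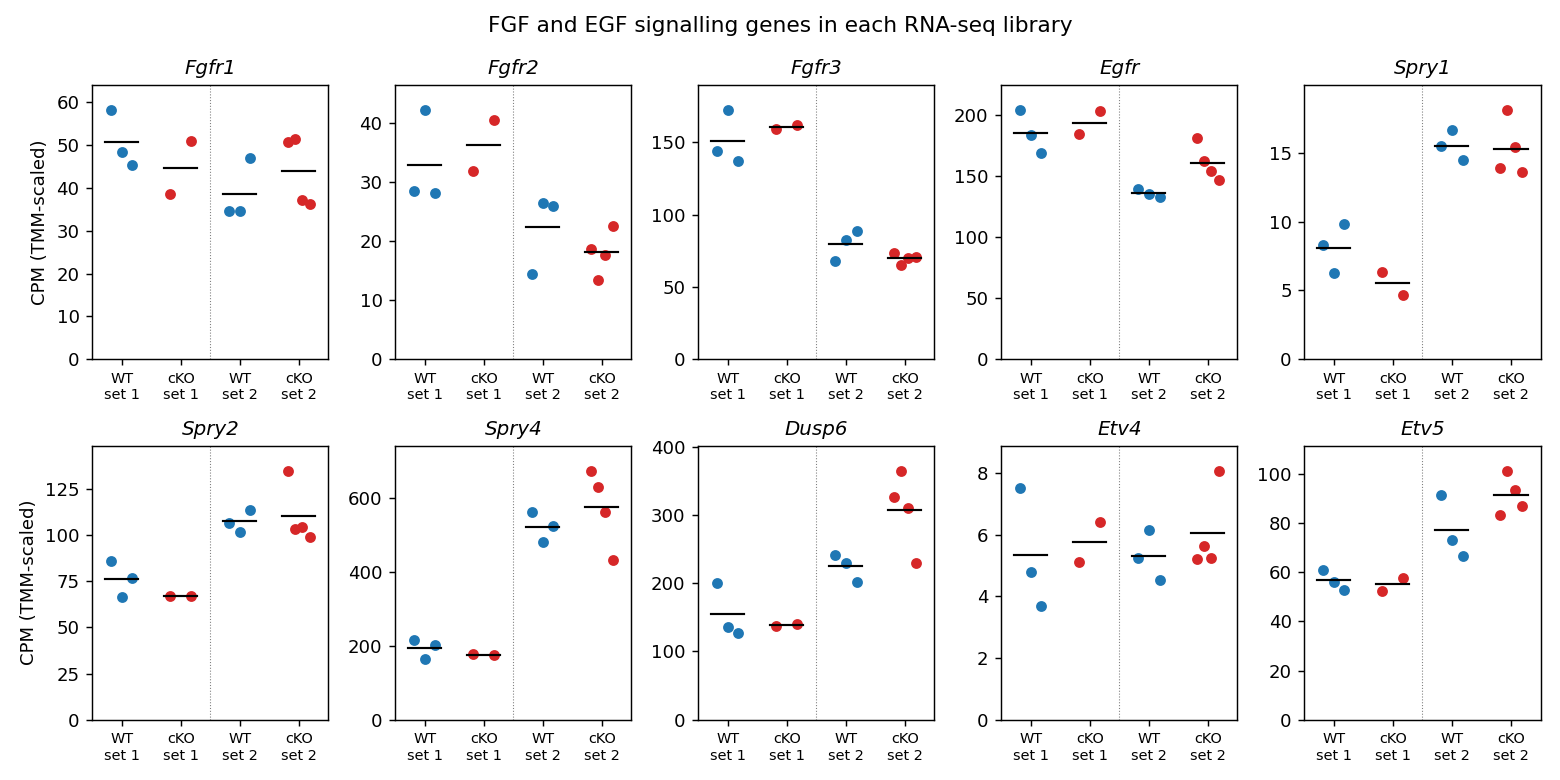
CPM of the 10 genes (y axis, linear, from 0) in each of the 12 RNA-seq libraries; points are libraries, WT blue and cKO red, bars are the group means, and the dotted line parts set 1 from set 2. Spry1, Spry2, Spry4, Dusp6 and Etv5 sit higher in set 2 with no overlap between sets, Fgfr2 and Fgfr3 sit lower with no overlap, and WT and cKO points overlap within both sets for every gene except Egfr in set 2.

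Of the 4 inhibitor genes Spry4 had the largest difference between sets. It measured 179 and 174 CPM in the cKO libraries and 216, 164 and 203 CPM in the WT libraries of set 1. In set 2 it measured 675, 632, 562 and 432 CPM in cKO and 562, 481 and 524 CPM in WT. All 7 libraries of set 2 were far above all 5 of set 1, while cKO and WT overlapped within each set. The log2 difference between sets was 1.55 ± 0.101 (SE; edgeR adjusted p = 6.25e-10), and 3.08% of all genes tested had a larger difference in either direction.

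Spry1, another Sprouty gene, had the lowest counts of the 4 inhibitor genes, from 65 to 314 per library. It measured 6.36 and 4.67 CPM in cKO and 8.28, 6.27 and 9.82 CPM in WT of set 1. In set 2 the cKO libraries held 13.9, 18.2, 15.5 and 13.6 CPM and the WT libraries 15.5, 16.7 and 14.5 CPM. All 7 libraries of set 2 were above all 5 of set 1, with a log2 difference of 1.17 ± 0.149 (SE; edgeR adjusted p = 3.56e-06).

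Spry2, also a Sprouty gene, measured 67.1 and 67.1 CPM in cKO and 86.1, 66.5 and 76.6 CPM in WT of set 1. In set 2 it measured 135, 103, 104 and 99.0 CPM in cKO and 106, 102 and 114 CPM in WT. The sets again did not overlap, and the log2 difference was 0.59 ± 0.0866 (SE; edgeR adjusted p = 1.78e-05). Within set 2, cKO replicate 3 stood above the other 6 libraries.

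Dusp6, the ERK phosphatase gene, measured 138 and 139.7 CPM in cKO and 199.6, 136 and 127 CPM in WT of set 1. Set 2 held 326, 365, 309.8 and 229 CPM in cKO and 242, 229.8 and 202 CPM in WT. Every library of set 2 was above every library of set 1, by a narrow margin because WT replicate 1 was the high library of set 1. The log2 difference between sets was 0.82 ± 0.134 (SE; edgeR adjusted p = 6.00e-05). By group the order of the means was cKO of set 2 at 307 ± 57.0 CPM (SD, n = 4), WT of set 2 at 224 ± 20.4 CPM (SD, n = 3), WT of set 1 at 154 ± 39.6 CPM (SD, n = 3) and cKO of set 1 at 139 ± 1.17 CPM (SD, n = 2). Neighbouring groups of one set overlapped, and only the step between sets was free of overlap.

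Of the ETS factor genes, Etv5 followed the inhibitors and Etv4 did not pass the test. Etv5 measured 52.5 and 57.7 CPM in cKO and 61.0, 56.0 and 52.9 CPM in WT of set 1. In set 2 it measured 83.1, 101, 93.6 and 86.8 CPM in cKO and 91.3, 73.0 and 66.5 CPM in WT. The sets did not overlap, and the log2 difference was 0.57 ± 0.0880 (SE; edgeR adjusted p = 3.18e-05). Etv4 was scarce, at 56 to 136 counts per library, and measured 5.12 and 6.39 CPM in cKO and 7.50, 4.79 and 3.69 CPM in WT of set 1. In set 2 it measured 5.22, 5.64, 5.24 and 8.07 CPM in cKO and 5.23, 6.16 and 4.53 CPM in WT, within or near the range of set 1. Its log2 difference of 0.03 had a 95% interval from -0.37 to 0.42 (edgeR adjusted p = 0.917). The interval of Etv5 ran from 0.39 to 0.76, so the 2 intervals overlap and do not show that the genes differ in their change. A direct test of Etv5 against Etv4 was not made.

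Promoter sequence is shown for members that moved in opposite directions between the sets, to let their starts be compared. Each sequence is the 250 bases before a RefSeq start of the gene on build GRCm38.p6, read 5′ to 3′ on the gene's strand. The ETS core GGAAG or its reverse complement is in capitals. The first lies at chr10:99262981-99263230 on the plus strand, the second, before the downstream of 2 Etv5 starts, at chr16:22438369-22438618 on the minus strand, and the third, before the upstream of 2 Fgfr3 starts, at chr5:33721474-33721723 on the plus strand. The numbers of cores differ between starts of one gene. Before the other Fgfr3 start, not shown, the core stood at positions -229, -163 and -45. The 250 bases before the other Etv5 start, also not shown, did not hold it.
Dusp6: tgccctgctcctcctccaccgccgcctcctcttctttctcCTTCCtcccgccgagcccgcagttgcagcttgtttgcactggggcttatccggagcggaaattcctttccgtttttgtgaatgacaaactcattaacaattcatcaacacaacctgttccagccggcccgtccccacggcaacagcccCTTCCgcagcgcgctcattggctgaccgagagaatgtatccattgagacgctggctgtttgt
Etv5: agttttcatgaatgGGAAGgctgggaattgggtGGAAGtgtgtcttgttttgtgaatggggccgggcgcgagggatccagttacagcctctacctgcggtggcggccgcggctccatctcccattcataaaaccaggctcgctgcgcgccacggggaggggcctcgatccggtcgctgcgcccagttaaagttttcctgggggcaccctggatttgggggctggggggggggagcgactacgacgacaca
Fgfr3: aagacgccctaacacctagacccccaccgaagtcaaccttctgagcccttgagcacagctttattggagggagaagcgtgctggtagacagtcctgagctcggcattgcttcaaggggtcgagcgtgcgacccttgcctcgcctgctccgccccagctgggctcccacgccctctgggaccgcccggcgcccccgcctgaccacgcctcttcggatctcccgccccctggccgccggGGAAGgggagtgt

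Windows of 300 bases, reaching 50 bases past the start, were on hand for 9 starts of 7 of the 10 genes. GGAAG, searched on both strands, was found in 7 of these 9 windows, in 6 genes, and in 71.4% of all 32851 windows of the same length, so its presence does not set the members apart. It was found in windows of genes that were higher in set 2 (Dusp6, Etv5, Spry2) and of genes that were lower (Fgfr3, Fgfr2, Egfr). The octamers TGAATGAA (1.3% of all windows) and TGAATGGA (1.21%), which the repressor Capicua recognises, were in none of the 9 windows. Neither were the cyclic AMP response element TGACGTCA (1.79%) or the AP-1 motif TGANTCA (7.81%), where N is any base. These letters are a description of the windows and not of binding.

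Of the 4 receptor genes 3 were lower in set 2. Fgfr3 measured 159.5 and 162 CPM in cKO and 144, 173 and 137 CPM in WT of set 1. In set 2 it measured 73.2, 64.9, 70.1 and 70.6 CPM in cKO and 68.2, 82.2 and 88.4 CPM in WT. The sets lay far apart, and genotypes overlapped within both. Fgfr3 fell by 1.06 ± 0.0781 on the log2 scale (SE; edgeR adjusted p = 3.74e-09) to 0.48 of its level in set 1, and 7.09% of all genes had a larger difference.

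Fgfr2 measured 31.9 and 40.5 CPM in cKO and 28.5, 42.2 and 28.2 CPM in WT of set 1. In set 2 the cKO libraries held 18.6, 13.4, 17.7 and 22.6 CPM and the WT libraries 14.4, 26.5 and 26.0 CPM. The sets did not overlap, although the highest libraries of set 2 came close to the lowest of set 1. The log2 difference was -0.77 ± 0.159 (SE; edgeR adjusted p = 6.69e-04). In the WT libraries alone it was -0.56 and did not pass (edgeR adjusted p = 0.0580).

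Egfr, the EGF receptor gene, measured 184 and 203 CPM in cKO and 204, 183 and 169 CPM in WT of set 1. It measured 181, 162, 154 and 147 CPM in cKO and 139, 135 and 133 CPM in WT of set 2. The sets overlapped through cKO replicate 3 of set 2, which lay above WT replicate 3 of set 1. The log2 difference was -0.36 ± 0.0672 (SE; edgeR adjusted p = 2.15e-04), which 37.8% of all genes exceeded. In the cKO libraries alone it was -0.27 and did not pass (edgeR adjusted p = 0.0712).

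Fgfr1, the fourth receptor gene, measured 38.6 and 51.0 CPM in cKO and 58.3, 48.3 and 45.4 CPM in WT of set 1. It measured 50.8, 51.5, 37.2 and 36.4 CPM in cKO and 34.5, 34.6 and 47.0 CPM in WT of set 2. Libraries of the sets mixed, and the log2 difference of -0.22 ± 0.123 (SE) did not pass (edgeR adjusted p = 0.153). It passed without cKO replicate 1, at -0.33 (edgeR adjusted p = 0.0460), and in the WT libraries alone, at -0.39 (edgeR adjusted p = 0.0469).

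**Figure D2:**
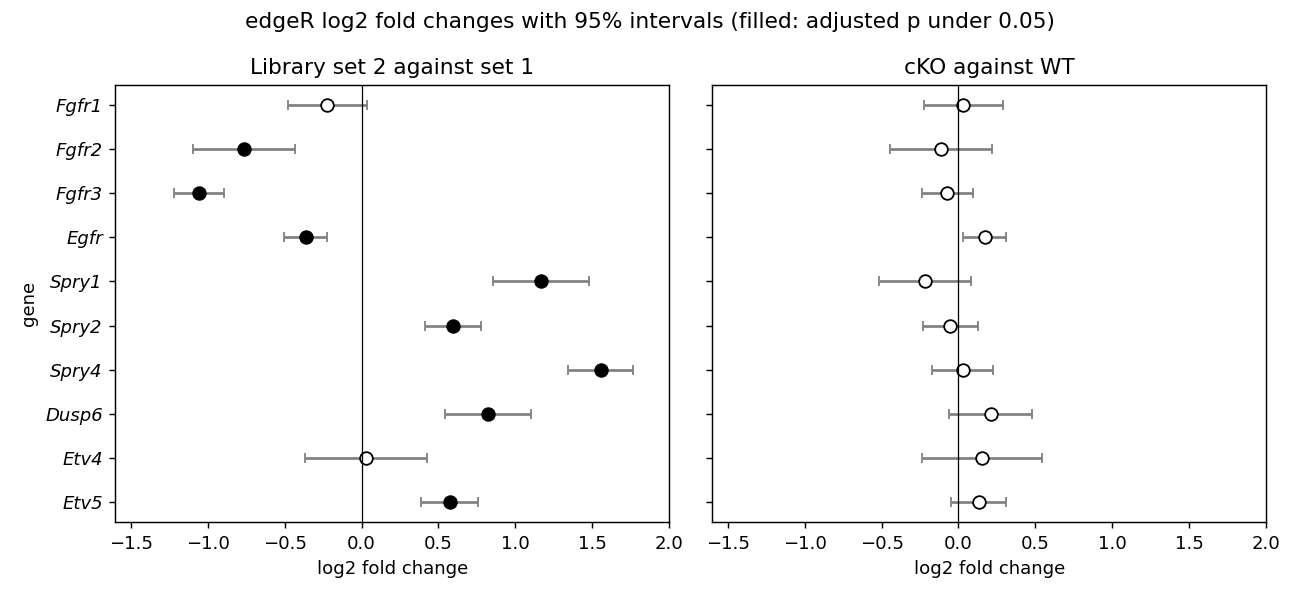
Log2 fold changes of the 10 genes from edgeR with 95% intervals, between library sets (left) and between genotypes (right); filled points have an adjusted p under 0.05 over all 13105 genes. Between sets 5 points lie right of 0 and 3 left of 0 as filled points, from -1.06 for Fgfr3 to 1.55 for Spry4, whereas all 10 points of the genotype comparison are open and lie between -0.22 and 0.21.

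An exact permutation test over libraries, with set labels exchanged within each genotype in all 300 ways, gave p = 0.00333, the smallest these splits allow, for the 7 members whose sets did not overlap. That p follows from the lack of overlap, seen in 23.6% of all genes tested, and adds nothing to it. For the members that did overlap, the permutation test gave an exact p of 0.00667 for Egfr, 0.203 for Fgfr1 and 0.8 for Etv4, all two-sided and unadjusted. With embryo sex as a term, read from Y-linked and Xist counts, 8 members passed in edgeR, against 42.1% of all genes tested, and without WT replicate 3 also 8, against 43%. In the WT libraries alone 8 members passed, against 27.1% of all genes, and in the cKO libraries alone 7, against 26.2%, and Spry1, Spry2, Spry4, Dusp6, Etv5 and Fgfr3 passed in both.

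Other genes of the pathway were taken from a list of 73 ligands, receptors, signal transducers, inhibitors, responding genes and heparan sulfate genes, of which 60 were tested. Between sets 21 of the 60 were higher and 13 lower, with a median log2 difference of 0.19. Of all genes tested 21.5% were higher and 22.2% lower. The list was chosen with earlier results of these data known. Against these shares of 21.5% and 22.2%, 5 of 11 further inhibitor genes were higher in set 2 and 0 lower. These were Dusp4, a phosphatase gene related to Dusp6, at 1.68 ± 0.268 (log2 difference ± SE; edgeR adjusted p = 4.94e-05), the Sprouty-related Spred2 at 0.97, Spred3 at 0.95 and Spred1 at 0.43, and Errfi1, which encodes an inhibitor of EGF receptor kinase activity, at 0.32. Dusp4 rested on 10 to 94 counts per library.

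Genes that ERK signalling is known to induce, or that take part in the response, were higher in 7 of 10 cases and lower in 1. The shares of all genes tested were 21.5% and 22.2%, and these genes were listed with earlier results known. The log2 differences were 3.11 for Ier3, 2.67 for Fos, 2.25 for Ier2, 2.09 for Egr1, 1.27 for Ccnd1 (cyclin D1), 1.26 for Phlda1 and 1.17 for Elk3, and -0.62 for Elk1. Egr1, an immediate early gene, measured 68.2 and 58.4 CPM in cKO and 40.3, 37.0 and 51.3 CPM in WT of set 1. In set 2 it measured 235, 192, 218 and 221 CPM in cKO and 226, 211 and 231 CPM in WT. The sets did not overlap, and edgeR gave an adjusted p of 3.03e-11. Fos, also an immediate early gene, ranged from 21.1 to 52.5 CPM in set 1 and from 117 to 281 CPM in set 2 (edgeR adjusted p = 1.73e-08). Etv1, an ETS gene related to Etv4 and Etv5, had a log2 difference of -0.10, and Myc 0.26, and neither passed (edgeR adjusted p = 0.216 and 0.0699).

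**Figure D3:**
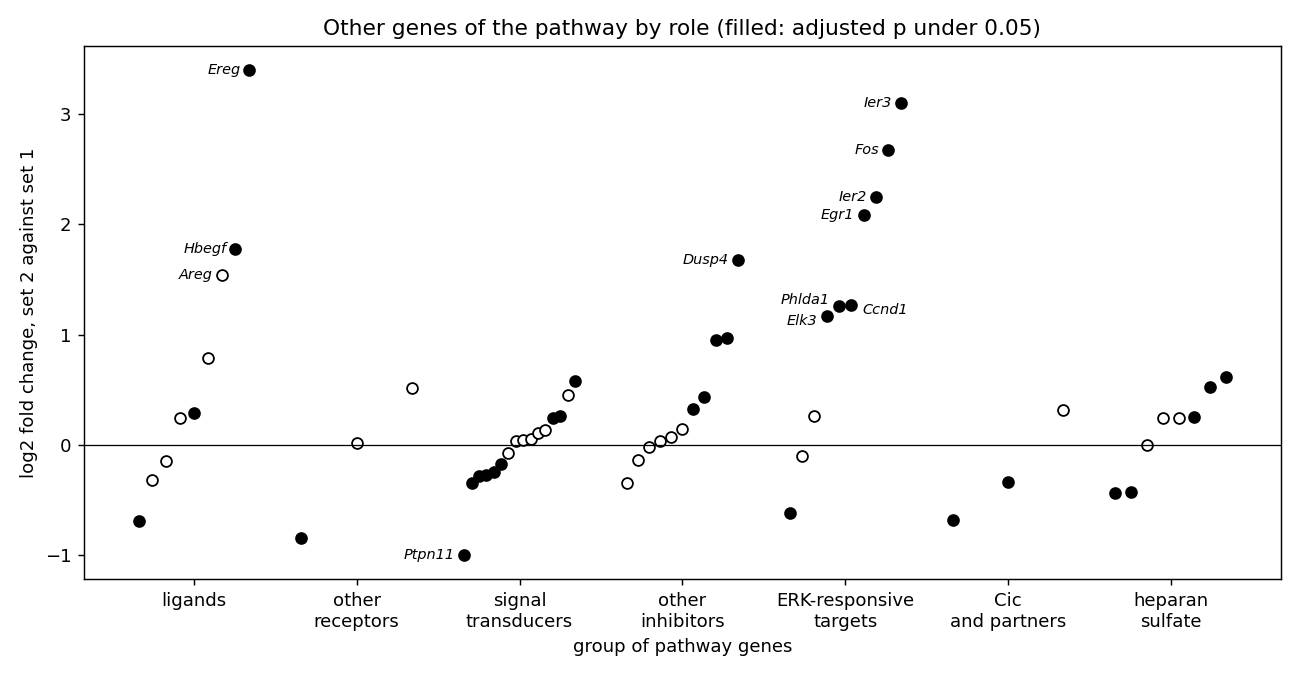
Log2 difference between set 2 and set 1 (y axis) of the 60 tested genes of the pathway other than the 10 members, grouped by role (x axis); filled points have an edgeR adjusted p under 0.05, and genes beyond 1 in either direction are named. Of the filled points, 5 further inhibitors and 7 responding genes lie above 0, and 0 further inhibitors and 1 responding gene lie below it. By the same rule 21.5% of all genes tested were higher and 22.2% lower.

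Ligand genes included both directions. Hbegf, which encodes a ligand of the EGF receptor, rose from 27.6 ± 7.23 CPM in set 1 (SD, n = 5) to 92.4 ± 17.6 CPM in set 2 (SD, n = 7), a log2 difference of 1.78 ± 0.143 (SE; edgeR adjusted p = 1.07e-08). Ereg, another such ligand gene, was also higher, but it held 0 counts in 3 of the 5 libraries of set 1 and at most 36 counts in any library, so its fitted log2 difference of 3.40 is not a size to rely on. Fgf1 was higher by 0.29, and Tgfa, a further EGF receptor ligand gene, was lower, at -0.70 ± 0.102 (SE; edgeR adjusted p = 1.80e-05). Fgf2, the mouse gene for bFGF, had at most 10 counts in any library and was not tested. Of the 9 ligand genes tested, 3 were higher and 1 lower, close to the 43.8% of all genes tested that passed in either direction.

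Among 3 further receptor genes, Erbb4 was lower, at -0.84 ± 0.165 (SE; edgeR adjusted p = 3.72e-04), and Erbb2 and Fgfrl1 did not pass. Transducers moved in both directions, with 3 of 16 higher and 6 lower, against 21.5% and 22.2% of all genes tested. Among those higher were the ERK gene Mapk3, by 0.58, and the RAS activator gene Sos1, by 0.26. Among those lower were Ptpn11 at -1.002, the adaptor genes Grb2 at -0.35, Gab1 at -0.28 and Frs2 at -0.27, and the RAF kinase gene Araf at -0.18. Ptpn11, the gene of the phosphatase SHP2, overlapped between sets because WT replicate 3 of set 1 held 10.9 CPM while WT replicate 1 of that set held 39.5 CPM.

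Of the Capicua gene and its partners, Atxn1 and Atxn1l were lower, at -0.69 and -0.34, and Cic itself did not pass at 0.31 (edgeR adjusted p = 0.0850). Heparan sulfate, the sugar chain with which FGF binds its receptors, is carried by syndecans and glypicans. The syndecan genes Sdc1 and Sdc4 were higher, by 0.61 and 0.52, as was Ext1, which encodes an enzyme that builds the chain, by 0.25. The glypican genes Gpc4 and Gpc1 were lower, at -0.44 and -0.43. In all, 3 of 8 heparan sulfate genes were higher and 2 lower, against 21.5% and 22.2% of all genes tested.

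Cell type markers also differed between the sets, where 21.5% of all genes tested were higher in set 2 and 22.2% lower. Of 8 astrocyte markers 7 were lower in set 2 and 0 higher, and their summed level was 4205 to 5759 CPM in set 1 and 1859 to 3080 CPM in set 2. Of 7 tested oligodendrocyte lineage markers 5 were lower and 0 higher, with sums of 891 to 1146 CPM in set 1 and 391 to 669.8 CPM in set 2. Of 5 neuronal markers 4 were higher and 0 lower, with sums of 118 to 147 CPM and 159 to 298 CPM. Of 10 neural stem cell markers 4 were higher and 5 lower, and the summed ranges overlapped, at 13533 to 14487 CPM and 11847 to 17029 CPM. Of the 6 microglial markers P2ry12 alone was tested, and it was higher in set 2, at 1.18 ± 0.223 on the log2 scale (SE; edgeR adjusted p = 2.74e-04). The summed level of the 6 was 1.66 to 3.66 CPM in set 1 and 3.76 to 7.89 CPM in set 2. Of 4 intermediate progenitor markers Btg2 alone was tested, at 2542 to 8584 counts per library, and it was lower, at -0.78 on the log2 scale. The others were nearly absent, with at most 12 counts for Eomes, 20 for Neurog2 and 0 for Neurog1. Btg2 by itself therefore does not stand for that cell type here. Of 3 tested ventral interneuron markers 1 was higher and 1 lower, and of 3 tested endothelial or mural markers 0 passed. In such bulk libraries fewer cells of a type and less RNA per cell cannot be told apart, and the part of these markers in the lower Fgfr3, Fgfr2 and Egfr levels was not tested.

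The study's design compares cells labelled cKO with WT cells, and here the comparison had library set as a covariate. No member passed: 0 of 10 had an edgeR adjusted p under 0.05, and the same was true of 0% of all genes tested. DESeq2 and limma-voom likewise called 0 of the 10, against 2 and 1 of all 13105 genes tested. Log2 differences (cKO against WT) ran from -0.22 for Spry1 to 0.21 for Dusp6, with a median of 0.03 over the members and -0.001 over all genes. At an unadjusted p under 0.05 there was 1 member, Egfr, against 6.14% of all genes. For 0 of the 10 members were all 6 cKO libraries apart from all 6 WT libraries, as was so for 0.13% of all genes.

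The 95% intervals bound what these libraries could have missed. Among inhibitors the genotype difference of Spry4 was 0.03 with an interval from -0.17 to 0.23 on the log2 scale, that of Spry2 -0.05 (-0.23 to 0.12), that of Spry1 -0.22 (-0.52 to 0.08) and that of Dusp6 0.21 (-0.06 to 0.48). Among receptors it was 0.03 for Fgfr1 (-0.22 to 0.29), -0.11 for Fgfr2 (-0.45 to 0.22) and -0.07 for Fgfr3 (-0.23 to 0.09). For Etv4 it was 0.15 (-0.24 to 0.54) and for Etv5 0.13 (-0.05 to 0.31). Each of these intervals includes 0, and the 1 member whose interval does not is Egfr. Single libraries weighed on these values: leaving out each in turn gave -0.29 to -0.11 for Spry1 (the latter without cKO replicate 2), 0.13 to 0.32 for Dusp6 (without WT replicate 6 and WT replicate 1) and 0.05 to 0.28 for Etv4 (without cKO replicate 6 and WT replicate 1). The ranges were -0.22 to -0.01 for Fgfr2 (without cKO replicate 2 and WT replicate 5), -0.11 to -0.01 for Fgfr3, -0.03 to 0.13 for Fgfr1, -0.12 to -0.01 for Spry2, -0.03 to 0.08 for Spry4, 0.06 to 0.19 for Etv5 and 0.13 to 0.21 for Egfr.

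Egfr was 0.17 ± 0.0667 higher in cKO on the log2 scale (SE; 95% interval 0.03 to 0.31), with an unadjusted p of 0.0196 and an edgeR adjusted p of 0.803. An exact permutation test over the 350 ways to exchange genotype within sets gave p = 0.0571, two-sided. Within set 2 all 4 cKO libraries (147 to 181 CPM) lay above all 3 WT libraries (133 to 139 CPM), but within set 1 the genotypes overlapped. Egfr was the single member of 10 without overlap in set 2, where 7.85% of all genes had none, and 0 of 10 members were without overlap in set 1, where the share was 16.2%.

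**Figure D4:**
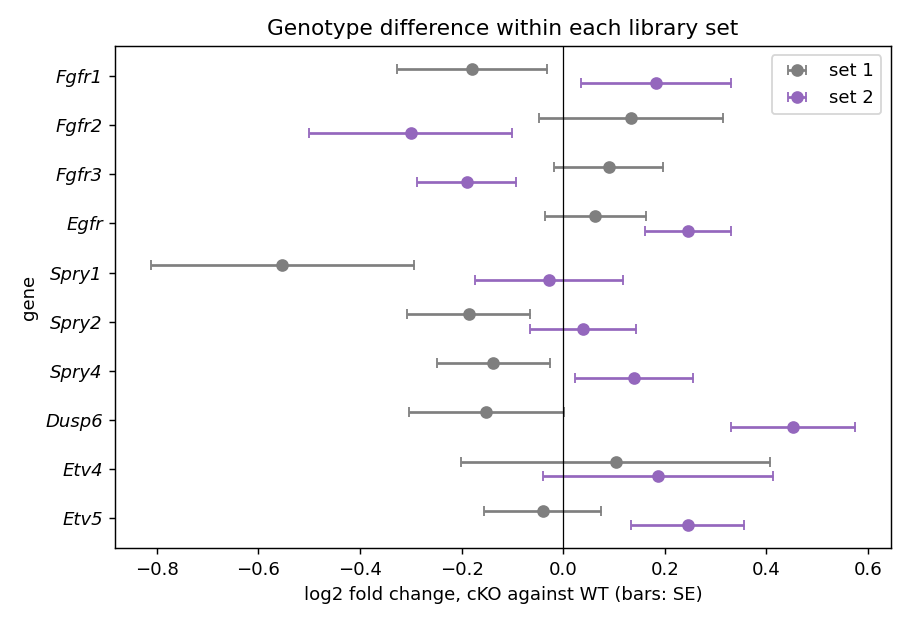
Log2 difference between cKO and WT (x axis) of each of the 10 genes, fitted within set 1 (grey) and within set 2 (purple) by edgeR; bars are the SE. The values for Dusp6 are -0.15 in set 1 and 0.45 in set 2, the widest gap among the members, and no value in either set passed the adjusted threshold.

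Whether the genotype difference itself differed between sets was tested by the interaction term, which called 0 of 10 members and 0% of all genes. At an unadjusted p under 0.05 there was again 1 member, Dusp6, against 3.54% of all genes. Its log2 difference between genotypes was -0.15 ± 0.153 (SE) in set 1 and 0.45 ± 0.122 (SE) in set 2, and the interaction was 0.60 ± 0.225 (SE; unadjusted p = 0.0150, edgeR adjusted p = 1.000). Without the filter on low counts the same edgeR test called it (adjusted p = 0.00529), and without WT replicate 1, the high library of set 1, the interaction was 0.37. Dropping that filter also let 65 of 20312 genes pass between genotypes, against 0 of 13105 with it. It left the log2 difference of Spry4 between sets at 1.55 but took its edgeR adjusted p from 6.25e-10 to 9.18e-131. For Fgfr3 the difference stayed at -1.06 and the edgeR adjusted p went from 3.74e-09 to 1.97e-48. The Dusp6 call in this setting thus came with far smaller p-values for members whose differences hardly moved, and is not relied on here. Among the other pathway genes the smallest unadjusted p values of the interaction were 0.00125 for Egr1, 0.00187 for Fos and 0.0162 for Atxn1l, and 0 of 60 passed. For genotype 0 of the 60 passed as well. There the smallest unadjusted p values were 0.00578 for Gpc4, at 0.42, 0.0263 for Sdc4, at -0.22, and 0.0263 for Sulf2, a heparan sulfate sulfatase gene, at 0.15 on the log2 scale. Marker lists of the other cell types held 0 genes called by genotype.

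Single libraries ran high or low for several members at once. In set 1 WT replicate 1 was the highest library for 7 of the 10 members and WT replicate 3 the lowest for 5. In set 2 cKO replicate 4 was the highest for 4 members (Fgfr1, Spry1, Dusp6 and Etv5) and the lowest for 2 (Fgfr2 and Fgfr3), and WT replicate 6 was the lowest for 4. Several members vary together, so these are not independent counts. No such tally over all genes is given, so they are not a trait of the members.

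After each set's mean had been subtracted from log2 CPM, Fgfr2 and Fgfr3 varied together over the 12 libraries (Pearson r = 0.882), as did Egfr and Dusp6 (0.809), Spry2 and Spry4 (0.752) and Dusp6 and Etv5 (0.740). Fgfr3 and Etv5 ran opposite to each other (-0.759), as did Fgfr2 and Spry4 (-0.713). These 12 libraries share 2 sets and their depths, and the values are a description. Among all tested genes the one most like a member on this measure was Tom1l1 for Fgfr1 (r = 0.949), Slc15a2 for Fgfr2 (0.964), Rimklb for Fgfr3 (0.923) and Cep164 for Spry1 (0.939). It was Lipe for Spry2 (0.958), A930003A15Rik for Spry4 (0.945), Mybbp1a for Dusp6 (0.972), Taf11 for Etv4 (0.922) and Hiat1 for Etv5 (0.956). Of these, A930003A15Rik and Lipe were scarce, at means of 0.722 and 2.54 CPM. Each gene was picked as the highest r among 13105 genes over 12 libraries, so a high r is no evidence of a shared role. The runner-up for Fgfr2 was Pdgfra (0.937) and that for Spry4 was Olig1 (0.930). Both are on the oligodendrocyte lineage list and were picked out from the runners-up of all members for that reason. Fgfr2 and Spry4 themselves ran opposite to each other (-0.713), so these runners-up do not show that the 2 members follow that lineage together.

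HAC-seq gave another readout of the same transcripts. Reads that start 1 base after a cytidine, divided by all reads there, give the cleavage ratio, which is raised where the cytidine carries 3-methylcytidine. The deposited table held 118890 different C sites, and 248 of them lay within 9 of the 10 genes on the gene's strand in RefSeq coordinates of GRCm38.p6. Etv5 (chr16:22381313-22439570) held 79 of these sites, Spry2 (chr14:105891947-105896819) 39, Egfr (chr11:16752203-16913907) 37, Dusp6 (chr10:99263231-99267489) 26, Spry4 (chr18:38586247-38601347) 26 and Spry1 (chr3:37639947-37644599) 24. Fgfr1 (chr8:25518759-25575718) held 9, Etv4 (chr11:101769747-101785310) 7, Fgfr3 (chr5:33721724-33737068) 1 and Fgfr2 (chr7:130162451-130266808) 0. The table lists a site only where reads start there in every WT library, so the number of listed sites is no measure of methylation. Some cKO libraries had ratios of 0 at listed sites, so this rule can raise WT ratios against cKO ratios.

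Of the 248 sites, 32 were covered by 50 or more reads in every one of the 7 libraries and had a mean ratio of 0.05 or more. They were 10 sites in Etv5, 9 in Spry2, 4 each in Spry4 and Dusp6, 3 in Egfr and 1 each in Spry1 and Etv4. In a quasi-binomial model over all 13240 such sites in the table, 0 of the 32 passed an adjusted p under 0.05 and 0 had an unadjusted p under 0.05, and 0.00755% of all sites tested passed. Mean ratios in WT ran from 4.35% to 10.8%, and the cKO ratio was higher at 18 sites and lower at 14. No library was labelled as an uncleaved control, so ratios of this size cannot be told from background read starts.

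The smallest p among the 32 was at a Spry2 site, position 105893250 of chromosome 14 on the minus strand. Its ratio was 7.69%, 5.49%, 7.29% and 7.04% in the WT libraries and 1.52%, 6.41% and 1.32% in the cKO libraries, with 66 to 104 reads at the site. The cKO libraries included both the lowest values and 1 within the WT range, and the difference of -3.72 percentage points did not pass (quasi-binomial p = 0.0826, adjusted p = 0.608, fitted across all sites with limma's squeezed dispersions). With so few reads each ratio rests on a handful of read starts. At another Spry2 site, position 105893123, the order was the other way, with 7.78% ± 2.01 in WT (SD, n = 4) and 10.9% ± 2.34 in cKO (SD, n = 3), and it did not pass either (quasi-binomial adjusted p = 0.661 across all sites). At none of the 32 tested sites was a difference in cleavage between genotypes detectable at this depth.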

How the data were processed

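RNA-seq measured 12 libraries and HAC-seq 7. The authors deposited unnormalized read counts per gene. The submitters' processing notes name STAR 2.5.2a, Trimmomatic 0.32 and bcl2fastq 2.17.1.14, and as builds GRCm38 (RNA-seq) and GRCm38.p6 (HAC-seq). No counting program, annotation or strand setting is given in the sources used here. The HAC-seq table, as deposited, gives, per C site and library, read starts (a signal), all reads (a count), their quotient as a fraction and, per the file headers, a p-value per site, which was not used.

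Counts were tested with edgeR 4.0.16 in R 4.3.3 (genes kept by filterByExpr, TMM, two-sided quasi-likelihood F test, library set and genotype as terms). DESeq2 1.42.0 and limma 3.58.1 were alternatives. SE is the log2 fold change over the root of F. Correlations and exact permutations used log2 CPM with a prior count of 2. The scripts were tested on simulated data. All sample columns were used and 0 were left out.

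The members and gene lists were chosen with earlier results of these data known. All 10 members are named. Other listed pathway genes are named where they pass the adjusted threshold, or, with fewer than 3 such genes in a comparison, the 3 with the smallest p, and some that did not pass were added after their values were seen. A few genes that the rule names are not reported here. Promoters come from RefSeq windows. Exon lengths were not used, so levels are not compared between genes.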

Additional observations from a re-analysis of the deposited data

Results flagged for a closer look

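A library was flagged where its gap to the nearest other library of the group was large against the range of the group (Dixon's test). The groups were, for each member, the libraries of set 1, those of set 2 and the cKO libraries of set 2. Of 30 groups of member values 4 were flagged, and chance flags about 1 in 20. The last kind of group lies within the one before it, so the groups are not independent, and Spry2 in cKO replicate 3 was flagged in both. The 2 shares are therefore not a fair comparison. Dusp6 in WT replicate 1 of set 1 stood at 199.6 CPM, where the nearest of the 5 libraries held 139.7 CPM. Spry2 in cKO replicate 3 stood at 134.9 CPM, above the next library at 113.8 CPM among all 7 of set 2 and above 104.1 CPM among the 4 cKO libraries of set 2. Etv4 in cKO replicate 6 stood at 8.07 CPM, where the nearest of those 4 held 5.64 CPM.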

How the results depend on the processing

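Of 71 alternative counts of members or sites called, 70 stayed within 1.5 times of the value reported. The exception was the interaction of genotype and library set without a filter on low counts, where 1 member, Dusp6, was called (0.61, edgeR adjusted p = 0.00529). Dusp6 held 1928 to 4908 counts per library, so the filter did not remove it in the main fit. In that setting p-values of members fell while their log2 differences hardly moved, and why was not tested. That unfiltered setting also called 65 of 20312 genes between genotypes, against 0 of 13105 in the main fit. Of 590 alternative values of single members, 0 changed sign in a call, 2 lost the call (Fgfr2 in WT libraries alone, Egfr in cKO libraries alone) and 3 gained one (Fgfr1 without cKO replicate 1 and in WT libraries alone, and Dusp6 as above). Genotype values below the threshold changed sign in some alternatives (Fgfr1 in 7 of 22). Leaving out each library in turn gave 8 to 9 members called between sets and 0 between genotypes. Of all genes tested 43% passed between sets in the fit without WT replicate 3, and at most 1 gene passed between genotypes in any of these fits. With a replicate block 0 members were called by genotype. Same-numbered libraries did not all deviate together, with r from -0.0486 to 0.172, and replicate number 3 lies in different sets. Counts of 56 to 136 limit Etv4, and coverage limits the C sites.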
